A study of Homo sapiens with 8 samples.

Results

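A group of 9 genes that carry and answer interferon signals was followed in Rh41 cells after knockdown of the histone methyltransferase G9a. They are the receptor chain IFNAR1, the kinase JAK1, the signal transducers STAT2 and STAT3, and the interferon regulatory factors IRF1, IRF2, IRF3, IRF7 and IRF9. These 9 genes, of 60234 in the deposited table, were chosen by symbol with earlier results of these data known, so their differences between the groups are described and lend no independent support. A symbol listed on several identifiers would have been selected on the highest mean level over all 8 libraries, but each of the 9 stood on 1 identifier. Rh41 is an established human line of alveolar rhabdomyosarcoma, a childhood tumour of muscle-like cells, and is labelled as positive for the fusion gene PAX3-FOXO1. All 8 libraries come from this line. The control group, CTR, has 4 libraries whose knockdown label is control, and the siG9a group has 4 whose label is siG9a, while the series title writes shG9a. The series text calls the 4 of each group biological replicates, but the labels used here do not say which control agent was given or for how long the knockdown ran.

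Type I interferons bind a receptor made of IFNAR1 and IFNAR2, whose cytoplasmic tails hold the kinases TYK2 and JAK1. The kinases phosphorylate STAT proteins, among them STAT2, which works with IRF9 in the complex ISGF3 to bind interferon-stimulated response elements in target genes. IRF3 and IRF7 act earlier, when nucleic acid sensors activate them to switch on the interferon genes, IRF1 activates and IRF2 mostly represses overlapping targets, and STAT3 answers cytokines of the interleukin-6 family. G9a places the repressive dimethyl mark on lysine 9 of histone H3 and is known as a restraint on interferon and interferon-induced genes in several cell types.

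The libraries held 1458825 to 1925895 reads assigned to genes in CTR and 1652206 to 1938665 in siG9a, so 1 read was worth 0.516 to 0.685 CPM, the reads of a gene per 1000000 reads of its library. Each gene was tested with limma on log2(CPM + 1), in an unblocked fit with the group alone and in a blocked fit that also held the replicate number. A gene is said to be called where its p, adjusted over the 15092 genes that average 1 CPM or more, is under 0.05. The unblocked limma fit called 0 genes (0%), with 1880 at an unadjusted p under 0.05. The blocked one called 1717 (11.4%), of which 733 were higher (4.86%) and 984 lower (6.52%). The sources used here do not say what separates the biological replicates (cultures, transfections or days), so p-values measure the spread between these samples. EHMT2 on chromosome 6, which encodes G9a, was at 0.340, 0.516, 0.379 and 0.663 times the control of the same replicate number, lower in 4 of 4 pairs although the groups overlapped. Its log2 change was −1.10 ± 0.31 (SE, n = 4 per group; adjusted p = 0.191 unblocked and 0.000472 blocked). EHMT2 stood on 7 identifiers, and some genes of the lists below also stood on several. For each, only the identifier with the highest mean level over all 8 libraries was used. Both replicate 3 libraries stand apart. MYOD1, the master regulator of muscle identity, was at 95.3 CPM in CTR and 128 CPM in siG9a for replicate 3, and at 608 to 864 CPM in the other 6 libraries. The summed level of 10 skeletal muscle markers ran from 314 to 2089 CPM in CTR and from 252 to 1300 CPM in siG9a, with 4 of the 8 tested called lower in the blocked fit and 0 higher. Fewer cells of a type and less RNA per cell cannot be told apart in bulk RNA. Mitochondrial genes took 4.59 to 9.18% of reads in CTR and 5.21 to 13.7% in siG9a, a share higher in siG9a in each of the 4 pairs. The part of the muscle marker differences in the results below was not tested beyond the fits without replicate 3. The part of the mitochondrial share was not tested.

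The promoters of 6 of the 9 genes were found in the RefSeq promoter table (GRCh38.p14): IRF1, IRF9, STAT2, STAT3, JAK1 and IFNAR1. Their 250 bases before the annotated start were searched on both strands for the interferon-stimulated response element, taken as GAAANNGAAA, and for the gamma-activated site bound by STAT dimers, taken as TTCNNNGAA, which reads the same on both strands. Of 35116 promoter windows in the table, 3.02% held the first motif and 6.57% the second. The first was in 0 of the 6 genes, so no matches of the motifs overlapped. The second was in 2 of the 6 genes, IRF1 and IRF9. Counted by window, as the shares are, it was in 2 of 9, since JAK1 has 3 annotated starts and IFNAR1 2. Both windows are printed 5′ to 3′ on the strand of the gene, with the match in capitals, beside that of STAT2, whose product works with IRF9 and whose window holds neither motif. A match is a string of letters and not a measured binding site. No window was found for IRF2, IRF3 or IRF7, and a link between matches and differences between the groups was not tested.

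IRF1, chr5:132490774-132491023, minus strand: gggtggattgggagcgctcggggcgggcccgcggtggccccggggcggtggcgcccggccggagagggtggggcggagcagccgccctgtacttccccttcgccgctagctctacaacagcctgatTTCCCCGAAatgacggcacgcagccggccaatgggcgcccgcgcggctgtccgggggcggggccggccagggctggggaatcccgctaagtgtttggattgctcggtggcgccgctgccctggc

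IRF9, chr14:24161015-24161264, plus strand: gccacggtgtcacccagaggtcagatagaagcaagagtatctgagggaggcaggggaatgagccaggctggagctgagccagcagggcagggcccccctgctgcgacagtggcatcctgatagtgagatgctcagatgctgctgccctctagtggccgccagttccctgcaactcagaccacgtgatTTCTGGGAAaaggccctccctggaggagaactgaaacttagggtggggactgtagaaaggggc

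STAT2, chr12:56360108-56360357, minus strand: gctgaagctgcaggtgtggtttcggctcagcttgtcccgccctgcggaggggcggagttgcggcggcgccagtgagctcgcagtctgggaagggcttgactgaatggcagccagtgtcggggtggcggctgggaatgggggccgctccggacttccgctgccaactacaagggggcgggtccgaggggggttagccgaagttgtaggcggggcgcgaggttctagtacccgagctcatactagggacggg

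The IRF1 match, TTCCCCGAA, lies 124 to 116 bases before the start, and the IRF9 match, TTCTGGGAA, 63 to 55 bases before it. The windows differ in composition, with 74.4% G and C for IRF1, 59.6% for IRF9 and 67.2% for STAT2.

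IRF1 and IRF9 were the members that separated the groups. IRF1 (ENSG00000125347, chromosome 5), a transcription factor that drives interferon-stimulated and antigen presentation genes, was 2.52-fold higher in siG9a. It measured 20.6, 12.2, 11.1 and 17.1 CPM in CTR replicates 1 to 4 (30, 20, 18 and 33 reads). In siG9a it measured 37.6, 42.4, 46.8 and 26.4 CPM (73, 70, 82 and 46 reads). The lowest siG9a library, replicate 4, was above the highest CTR library, replicate 1, so the groups did not overlap. Their 95% Wilson counting intervals, 19.8 to 35.2 CPM and 14.4 to 29.4 CPM, did overlap. The means were 15.2 ± 4.43 and 38.3 ± 8.79 CPM (SD, n = 4 each). IRF1 was 1.83, 3.49, 4.23 and 1.54 times the control of the same number, so the largest ratios were in replicates 2 and 3. The log2 change of 1.29 had an SE of 0.29 unblocked (adjusted p = 0.120) and of 0.25 blocked (adjusted p = 0.00139). Without replicate 3 in either group it was 1.05 (adjusted p = 0.0807 unblocked and 0.0303 blocked). Genes of the opposite strand cover the end of IRF1 in GENCODE release 29, among them C5orf56, at 1.17 CPM in CTR and 1.97 CPM in siG9a. Whether the counting used strand is not given in the sources used here.

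IRF9 (ENSG00000213928, chromosome 14), the DNA-binding subunit of ISGF3, had the largest log2 change among the 8 members tested. Its CTR libraries held 4, 2, 3 and 8 reads, or 2.74, 1.22, 1.84 and 4.15 CPM in replicates 1 to 4. The siG9a libraries held 14, 20, 24 and 11 reads, or 7.22, 12.1, 13.7 and 6.31 CPM. The groups did not overlap, and again replicates 2 and 3 were the highest in siG9a and the lowest in CTR. The means were 2.49 ± 1.27 and 9.84 ± 3.62 CPM (SD, n = 4 each), a 3.95-fold difference. The ratios to the control of the same number were 2.64, 9.93, 7.45 and 1.52. The log2 change was 1.64 ± 0.41 (SE; adjusted p = 0.145 unblocked and 0.00937 blocked). That call rests on few reads, 17 in all CTR libraries and 69 in all siG9a libraries. It was lost in the blocked fits without replicate 2 (log2 change 1.34, adjusted p = 0.108) and without replicate 3 (log2 change 1.40, adjusted p = 0.0786). With a pseudocount of 5 in place of 1 the blocked log2 change was 0.97 (adjusted p = 0.00756). Another annotated gene of the same strand, ENSG00000259529, covers the end of IRF9. It measured 4.37 ± 3.32 CPM in CTR and 13.04 ± 5.83 CPM in siG9a (SD, n = 4 each), and was higher in each of the 4 pairs (adjusted p = 0.268 unblocked and 0.00874 blocked). How reads shared by overlapping genes were assigned is not given in the sources used here, so reads of these transcripts cannot be told apart.

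**Figure D1:**
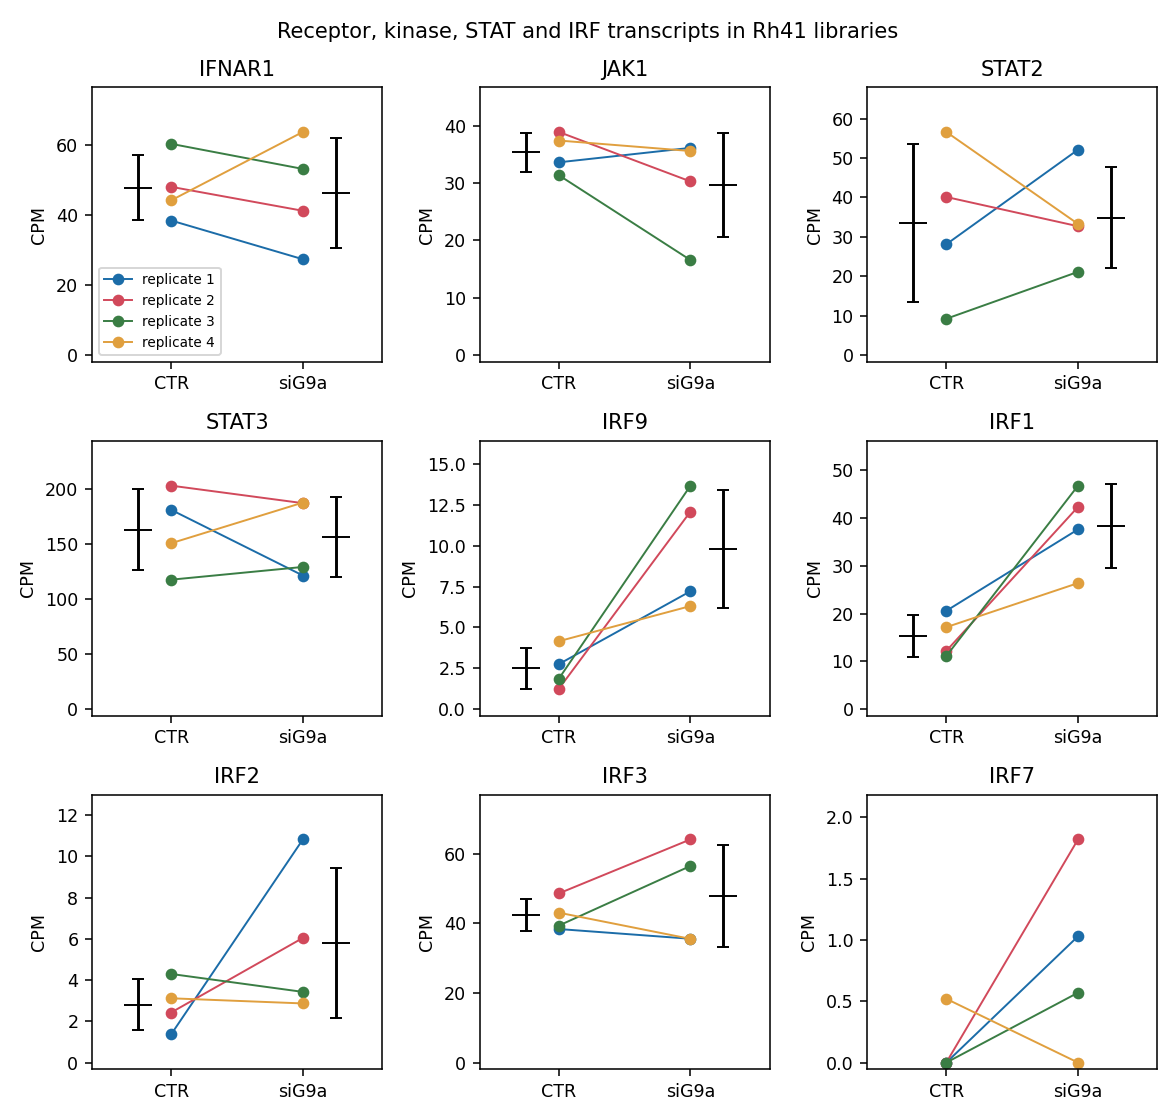
CPM of each of the 9 members (y axis, from 0) in CTR and siG9a, with lines joining libraries of the same replicate number and black bars giving mean ± SD (n = 4; none for IRF7, which had at most 3 reads in a library). For IRF1 and IRF9 all 4 lines go up and the groups do not overlap, and for the other 7 members the groups overlap.

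Over the 8 libraries, the levels of IRF1 and IRF9 on the log2(CPM + 1) scale moved together, as the plot of IRF9 against IRF1 shows. Among the 10862 genes that average 5 CPM or more, IRF1 was the gene most like IRF9 (Pearson r 0.957), and IRF9 was second to CTDP1 (r 0.979) in likeness to IRF1. THYN1, RHEBL1 and CDCA4 followed for IRF1, with r between 0.934 and 0.935. For IRF9 the next were CTDP1 (0.954), CNNM4 (0.939), THYN1 (0.935) and CTD-2574D22.2 (0.933). These coefficients describe 8 points in 2 groups that share libraries and depth, so a difference between the groups alone raises them.

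**Figure D2:**
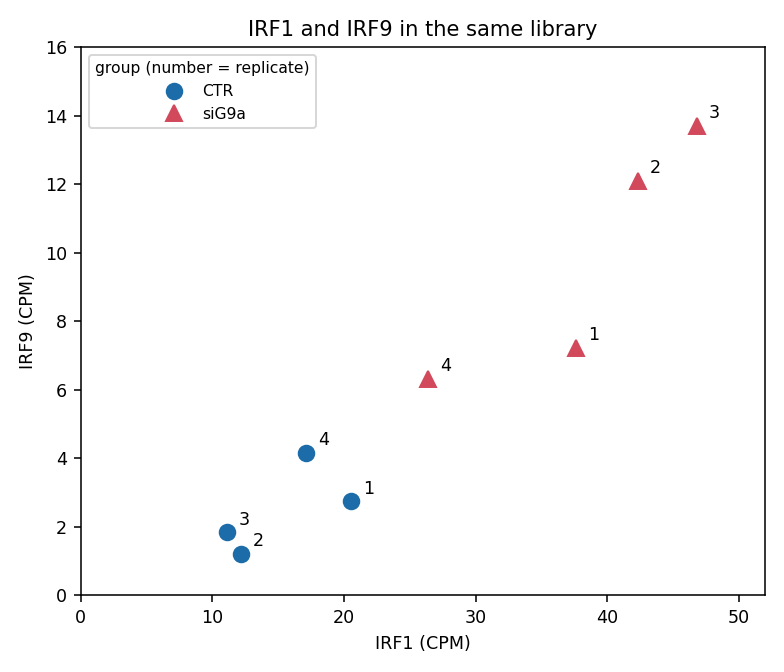
IRF9 (y axis, CPM) against IRF1 (x axis, CPM) in each of the 8 libraries, numbered by replicate. The 4 siG9a libraries lie at 26.4 to 46.8 CPM of IRF1 and 6.31 to 13.7 CPM of IRF9, above and to the right of all 4 CTR libraries.

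The other IRF members did not separate the groups. IRF2 (ENSG00000168310, chromosome 4), mostly a repressor of IRF1 targets, measured 1.37, 2.43, 4.30 and 3.12 CPM in CTR and 10.8, 6.05, 3.43 and 2.87 CPM in siG9a. The difference lay in replicates 1 and 2, with 21 and 10 reads in siG9a against 2 and 4 in CTR, while replicates 3 and 4 were lower in siG9a than in CTR. Its log2 change was 0.75, with a 95% interval of −0.24 to 1.74 unblocked (adjusted p = 0.536) and of −0.16 to 1.66 blocked (adjusted p = 0.299). It was 0.44 without siG9a replicate 1, and 0.23 in the blocked fit without replicate 1. IRF3 (ENSG00000126456, chromosome 19), the constitutive factor that sensors activate, measured 38.4, 48.6, 39.4 and 43.1 CPM in CTR and 35.6, 64.2, 56.5 and 35.6 CPM in siG9a. It was higher in replicates 2 and 3 and lower in 1 and 4, with a log2 change of 0.13 (blocked 95% interval −0.27 to 0.54; adjusted p = 0.888 unblocked and 0.733 blocked). IRF7 (ENSG00000185507, chromosome 11), the interferon-inducible factor that amplifies interferon-alpha production, was barely detected. It had 0, 0, 0 and 1 read in CTR and 2, 3, 1 and 0 reads in siG9a, at or under the floor of 3 reads (1.55 to 2.06 CPM) in every library, and was too low to test. No fold is given for it. The family members IRF4, IRF5 and IRF8 were likewise at or under 3 reads in each of the 8 libraries.

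STAT2 (ENSG00000170581, chromosome 12), the transactivating partner of IRF9, was called in neither fit. It measured 28.1, 40.1, 9.22 and 56.6 CPM in CTR and 52.1, 32.7, 21.1 and 33.3 CPM in siG9a. It was higher in siG9a in replicates 1 and 3 and lower in 2 and 4, and CTR replicate 3 was its lowest library. The log2 change was 0.24 (blocked 95% interval −0.30 to 0.77; adjusted p = 0.893 unblocked and 0.621 blocked). It turned to −0.056 without replicate 3 in either group, and to −0.26 without CTR replicate 3 alone. STAT3 (ENSG00000168610, chromosome 17), the most abundant member, measured 181, 203, 117 and 151 CPM in CTR and 121, 187, 129 and 188 CPM in siG9a. Replicates 1 and 2 were lower in siG9a and replicates 3 and 4 higher. Its log2 change was −0.06 (blocked 95% interval −0.39 to 0.27; adjusted p = 0.947 unblocked and 0.860 blocked). At 191 to 334 reads a library, STAT3 had the most reads of the members.

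Replicate 4 gave the smallest siG9a to CTR ratio for IRF1 and IRF9 and the highest for EHMT2. The other replicates did not keep that order. Replicate 1 had the lowest EHMT2 ratio (0.340), but its IRF1 and IRF9 ratios (1.83 and 2.64) were below those of replicates 2 and 3. A relation between these ratios was not tested. Whether the change of STAT2 differs from that of IRF9 was not tested. Of further STATs, STAT5A, STAT5B and STAT6 had log2 changes of −0.03, −0.24 and 0.26, none called in either fit, with STAT5A at 1 to 4 reads a library, and STAT4 was too low to test.

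**Figure D3:**
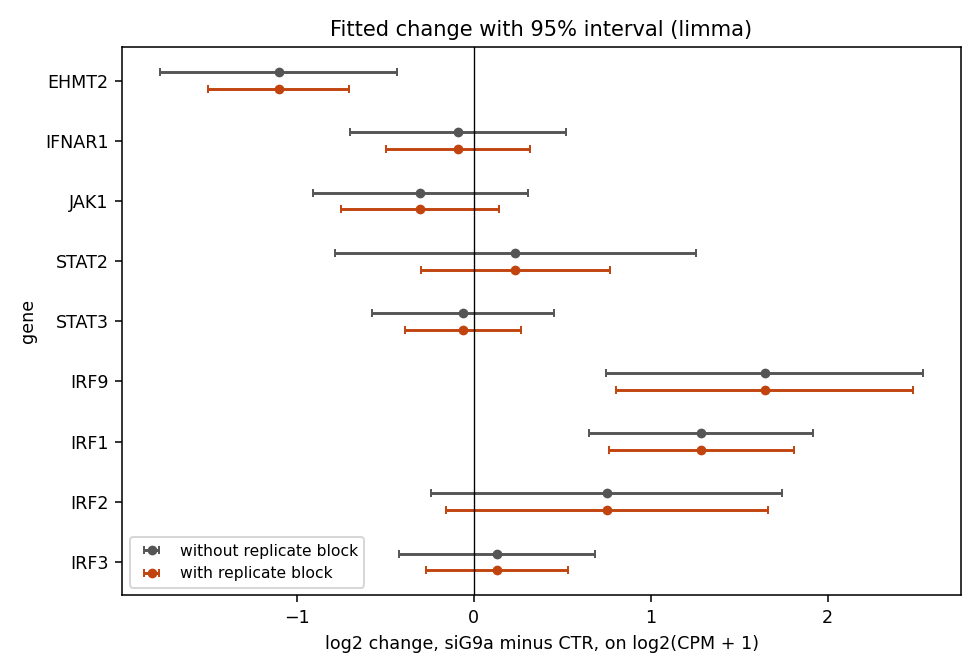
Fitted log2 change of siG9a against CTR on log2(CPM + 1) (x axis) for EHMT2 and the 8 members tested (y axis), with 95% intervals from the unblocked (grey) and blocked (orange) limma fits, n = 4 per group. The intervals of IRF1 and IRF9 lie above 0 in both fits, those of the other 6 members cross 0, and the p adjusted over all genes is under 0.05 for EHMT2, IRF1 and IRF9 in the blocked fit only.

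Neither the receptor chain nor the kinase was called. IFNAR1 (ENSG00000142166, chromosome 21), the low-affinity chain of the type I receptor, measured 38.4, 48.0, 60.3 and 44.1 CPM in CTR and 27.3, 41.2, 53.1 and 63.7 CPM in siG9a. It was lower in replicates 1, 2 and 3 and higher in replicate 4, and the groups overlapped widely. Its log2 change was −0.09 (blocked 95% interval −0.49 to 0.32; adjusted p = 0.939 unblocked and 0.834 blocked). JAK1 (ENSG00000162434, chromosome 1), the kinase shared by type I, II and III interferon receptors and by interleukin-6 receptors, measured 33.6, 38.9, 31.4 and 37.4 CPM in CTR and 36.1, 30.3, 16.6 and 35.6 CPM in siG9a. Its lowest library was siG9a replicate 3, and the log2 change was −0.30 (blocked 95% interval −0.75 to 0.15; adjusted p = 0.715 unblocked and 0.418 blocked). It was −0.053 without siG9a replicate 3 and −0.11 without replicate 3 in both groups. RAVER2, of the opposite strand, covers the end of JAK1 and measured 6.31 CPM in CTR and 9.98 CPM in siG9a.

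Of the 9 members, 8 passed the filter of 1 CPM. In the blocked fit 2 of these 8 were called higher and 0 lower, where 4.86% and 6.52% of all tested genes were. The libraries did not overlap for the same 2, both higher, where 3.88% of tested genes lay wholly above control and 3.45% wholly below. Both were higher in 4 of 4 pairs, as were 14.9% of tested genes, and 0 members were lower in 4 of 4, as were 15.3%. The median log2 change of the 8 was 0.18, against 0.01 over all genes tested. The group was put together with such results known, so nothing is read from these shares.

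The levels ordered the members. QuantSeq reads start near the poly(A) tail, so CPM counts transcript ends and needs no division by gene length. STAT3 stood first at a mean of 160 ± 34.1 CPM (SD over 8 libraries) and was above every other member in each library. IFNAR1 (47.0 CPM), IRF3 (45.2 CPM), STAT2 (34.1 CPM), JAK1 (32.5 CPM) and IRF1 (26.8 CPM) followed with overlapping ranges, and no neighbours among these 5 kept 1 order in all 8 libraries. IRF9 (6.16 CPM) was below IRF1 in 8 of 8 libraries. IRF9 and IRF2 (4.30 CPM) did not differ beyond their spread, with IRF9 above IRF2 in 5 of 8. IRF7 came last at 0 to 1.82 CPM. This order over all 8 libraries depends on the group for IRF1 and IRF9. By group mean, IRF1 was the lowest of those 5 in CTR (15.2 CPM) and above JAK1 (29.6 CPM) and STAT2 (34.8 CPM) in siG9a (38.3 CPM). IRF9 was below IRF2 in CTR (2.49 against 2.81 CPM) and above it in siG9a (9.84 against 5.80 CPM).

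The genes around the members were taken from lists by role. These lists too were chosen with earlier results of these data known, so their shares and medians are described only. Of 21 interferon genes, 20 were listed at 0 in all 8 libraries. The exception, IFNG, which encodes the type II interferon, was listed at 0 in the 4 CTR libraries. In siG9a it measured 1.55, 2.42, 0.57 and 1.72 CPM (3, 4, 1 and 3 reads). These counts lie near the floor of 3 reads, and IFNG was too low to test. Among the other receptors, 9 of 10 were tested and 0 called, where the blocked fit called 11.4% of all tested genes. IFNAR2, the high-affinity partner of IFNAR1, ran from 91.6 to 337 CPM in CTR and from 95.4 to 337 CPM in siG9a and was lowest in replicate 3 of each group. IFNGR2, a chain of the interferon-gamma receptor, averaged 36.9 ± 9.86 CPM in CTR and 55.4 ± 10.8 CPM in siG9a (SD, n = 4 each) and was higher in each of the 4 pairs (adjusted p = 0.387 unblocked and 0.0601 blocked). The kinases JAK2 and TYK2 were not called, with log2 changes of −0.50 and −0.01, and JAK3 was too low to test. Of 14 genes tested from a list around the activation of IRF3 and IRF7, 0 were called, beside the same 11.4%. Their median log2 change was 0.09. In lists this short, 0 calls are not read as a lack of change.

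Negative regulators of JAK and STAT signalling gave 2 calls in the blocked fit among 17 tested, both lower, where 6.52% of all tested genes were called lower and 11.4% in either direction, a share close to that of the list. SOCS6, of the suppressor of cytokine signalling family, measured 25.4, 14.6, 16.6 and 28.6 CPM in CTR and 8.25, 6.05, 5.71 and 6.88 CPM in siG9a, without overlap. Its log2 change was −1.49 ± 0.32 (SE, n = 4 each; adjusted p = 0.111 unblocked and 0.00136 blocked). PTPN1, a phosphatase that acts on JAK2 and TYK2, went from 604 ± 116 to 405 ± 82.2 CPM (SD, n = 4 each) and was lower in each of the 4 pairs (adjusted p = 0.307 unblocked and 0.00613 blocked). That call was lost in the blocked fits without replicate 1 (adjusted p = 0.0502) and without replicate 2 (adjusted p = 0.0505). The median log2 change of the 17 was −0.0032, with 8 higher and 9 lower.

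Targets of these factors came from 2 lists. The interferon-stimulated list held 45 genes, without ISG15. Of these, 10 were at or under 3 reads in every library, and 34 were tested. Of the 34, 8 were called higher in the blocked fit and 0 lower, where 4.86% and 6.52% of all tested genes were. Some of the 8 had few reads, down to a total of 10 over the CTR libraries. A log2 change above 0 was fitted for 28 of the 34, and the median was 0.54 against 0.01 over all genes tested. As the list was chosen with earlier results of these data known, these values lend no independent support. SP110, a nuclear body protein, went from 6.27 ± 2.88 to 25.9 ± 8.79 CPM, and DTX3L, a ubiquitin ligase, from 33.5 ± 4.10 to 63.5 ± 3.64 CPM (SD, n = 4 each). In the unblocked fit their adjusted p was 0.0916 and 0.122, and in the blocked fit 0.00015 and 0.00185. IFITM3, a membrane protein that blocks virus entry, was higher in each of the 4 pairs with overlapping groups (adjusted p = 0.534 unblocked and 0.00468 blocked), a call lost in 2 of the 10 blocked fits. Of 16 genes tested from a list of STAT3 targets, 3 were called in the blocked fit, 1 higher and 2 lower, where 4.86% and 6.52% of all tested genes were, and the median log2 change was −0.06. MCL1, an inhibitor of apoptosis, was higher (log2 change 0.68, blocked adjusted p = 0.00405). CCND1, which encodes cyclin D1, and TIMP1, a metalloproteinase inhibitor, were lower (log2 changes −1.20 and −0.79, blocked adjusted p = 0.00449 and 0.0140). The CCND1 and TIMP1 calls were each lost in 2 of the 10 blocked fits, and without replicate 1 CCND1 was at −0.58. The unblocked limma fit called 0 of these 8 genes, from SOCS6 to TIMP1.

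**Figure D4:**
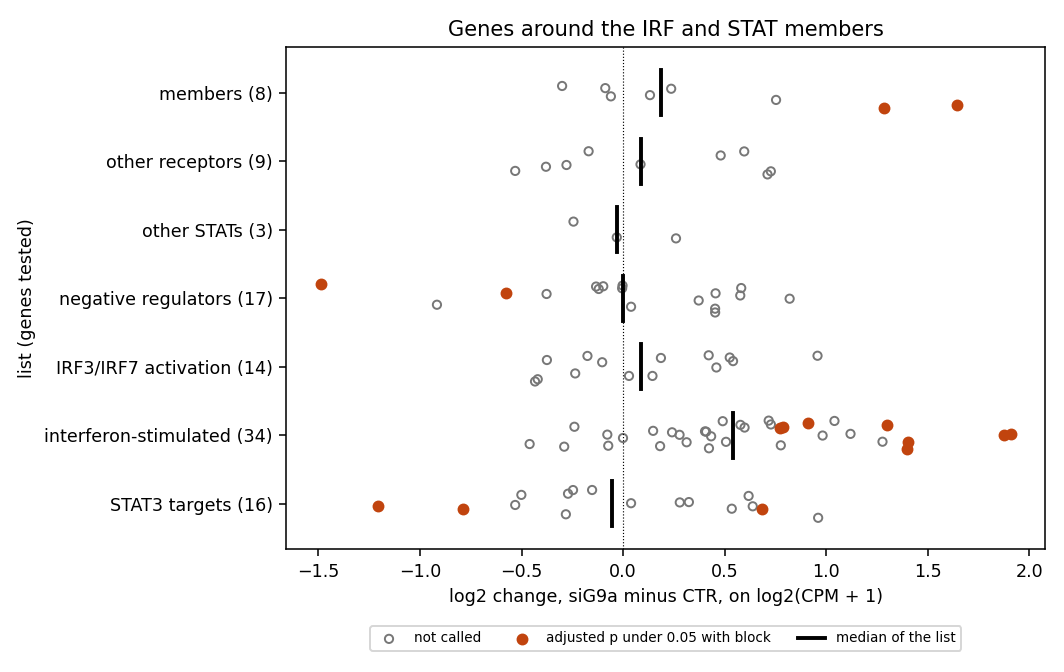
Log2 change of siG9a against CTR (x axis, on log2(CPM + 1)) for each tested gene of 7 lists (rows, with the number of genes tested), filled where the adjusted p of the blocked limma fit is under 0.05, with black lines at the list medians. The interferon-stimulated list has its median at 0.54 and 8 filled points, all to the right of 0. All lists were chosen with earlier results of these data known.

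Markers of leukocytes, in which many IRF genes are strongly expressed, were near the detection limit. Of 9 such markers, 7 were at or under 3 reads in every library, PTPRC and CD3E among them and CORO1A at 0 throughout, and the summed level of the 9 ran from 2.60 to 6.13 CPM in CTR and from 1.22 to 12.05 CPM in siG9a. The 2 that could be tested, LYZ and TYROBP, had log2 changes of 0.80 and 0.71 and were not called. Their part in the results was not tested.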

How the data were processed

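Total RNA was taken up in TRIzol, per the labels' protocols, and QuantSeq 3′ mRNA libraries were sequenced as single-end reads on a NextSeq500. The submitters' processing notes name FastQC 0.11.8, Trim Galore, STAR 2.5.0a, HTSeq 0.8.0 and edgeR 3.28, and the builds GRCh38 and hg19, without giving their roles. The authors deposited 1 table of CPM values, which sum to about 1000000 in each library, with no unused sample columns. In each library 100% of the non-zero values were whole multiples of 1 read (within 0.05 reads), so whole reads were recovered. Intervals on single libraries are 95% Wilson intervals, and intervals and floors cover counting error only.

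The main test was limma 3.58.1 (R 4.3.3) on log2(CPM + 1), lmFit and eBayes with trend, two-sided, Benjamini-Hochberg adjusted over the 15092 genes that average 1 CPM or more in the 8 libraries. The group was the only term. A second fit had the replicate number, taken from the sample titles, as a block. Across 8898 genes that average 10 CPM or more, deviations from the group means correlated between same-numbered libraries at 0.65, 0.25, 0.82 and 0.20, all above the threshold of 0.1 set for treating them as pairs. Libraries of different numbers passed this threshold too. These were CTR replicate 2 with siG9a replicates 4 (0.28) and 1 (0.11), and CTR replicate 4 with siG9a replicate 2 (0.14). CTR replicate 2 and siG9a replicate 4 correlated more with each other than with the libraries of their own number (0.25 and 0.20). The threshold therefore cannot decide whether the numbers pair the libraries of replicates 2 and 4. Alternatives changed the pseudocount, filter, scaling, weights, replicates and tool, with edgeR 4.0.16 and DESeq2 1.42.0 on the recovered reads. The blocked fits with another pseudocount, and those without pair 1, 2 or 4, were chosen after seeing the data. The code of the fits was run on simulated data in which same-numbered libraries shared their levels. As pairing was built in, that run cannot tell whether the numbers pair these samples. The members and lists were chosen with earlier results of these data known.

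Named are the 9 members, EHMT2, in each list at most the 3 called genes with the smallest adjusted p, relatives of the members by level, and the 5 genes most like IRF1 and IRF9. Some genes of these families are not reported here. Promoters are from RefSeq (GRCh38.p14), and overlaps between genes from GENCODE release 29.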

Additional observations from a re-analysis of the deposited data

Results flagged for a closer look

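Dixon's ratio, the gap of an extreme library to its nearest neighbour over the range, was taken in the 4 libraries of each group for EHMT2, the members and the 9 further genes named with their fits or levels. Of 38 sets of 4 with any spread, 2 were past the 95% critical value, and chance gives about 1.9. IRF7 was at 0.52 CPM, 1 read, in CTR replicate 4 and listed at 0 in the other 3 CTR libraries. DTX3L was at 27.4 CPM in CTR replicate 1, where the other CTR libraries lay between 35.05 and 36.4 CPM.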

How the results depend on the processing

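The replicate block decided most calls. Limma without it called 0 genes, 0 members and 0 genes of the other lists. The block gave 1717, 2 and 13, with median-ratio scaling 1693, 2 and 12, edgeR with the block 1709, 2 and 12, and DESeq2 with the block 936, 2 and 8. Pseudocounts of 0.1 and 5 with the block gave 1363 and 1710 genes, 2 members each, and 12 list genes each. Without the block, array weights gave 436, 2 and 6, DESeq2 292, 2 and 3, and no filter on low values 18 genes, while edgeR gave 0 genes, with 1846 at an unadjusted p under 0.05. Leaving out libraries gave 0 to 413 genes, 0 members and 0 to 4 list genes without the block (300 genes without CTR replicate 3, 2 without siG9a replicate 4), and 668 to 1393 genes, 1 to 2 members and 6 to 11 list genes with it. Of these, the blocked fit gave 1078 genes and 10 list genes without replicate 3 and 988 genes and 7 list genes without replicate 1. The cause of these differences was not tested.

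EHMT2 kept its direction, between −1.35 and −0.84 without libraries. It was called in all 10 fits with the block, at −1.10 (limma and edgeR), −1.11 (median-ratio scaling), −1.12 (DESeq2, and pseudocount 0.1) and −1.01 (pseudocount 5), and between −1.27 and −0.96 without a pair (−1.16 without replicate 2). IRF1 and IRF9 stayed above 0 in all 29 alternatives, and IRF1 was called in 10 of 10 with the block, IRF9 in 8 of 10. IRF2 stayed above 0 and JAK1 below 0, uncalled, and without libraries they ran from 0.23 to 1.09 and from −0.43 to −0.053. Uncalled members changed sign when libraries were left out. IRF3 ran from −0.022 to 0.26 without the block, and stayed above 0 with it, from 0.0055 to 0.27. STAT2 ran from −0.26 to 0.57 without the block (−0.056 in the blocked fit without replicate 3, and −0.10 with array weights). STAT3 ran from −0.21 to 0.054 without the block and from −0.19 to 0.11 with it. IFNAR1 ran from −0.26 to 0.14 without the block and from −0.29 to 0.041 with it. IRF7 averaged under 1 CPM and was not tested. Depth limits IRF2, IRF7 and IRF9, at 24 or fewer reads a library.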
